A study of Homo sapiens with 8 samples.

Results

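Integrins are the receptors that hold cells to the extracellular matrix, and laminins are the main proteins of the basement membrane they grip. The set described here holds 36 genes of this system, namely 13 integrin alpha subunits, 8 integrin beta subunits, 9 laminin chains, 4 other basement membrane genes (NID1, NID2, HSPG2 and AGRN), the laminin receptor dystroglycan (DAG1) and the tetraspanin CD151. They were chosen by gene symbol, as the rows of the count table whose Ensembl gene bears 1 of these names, and the rule itself uses no measured value, although the set was drawn up with earlier results of these data known. They make up 36 of 60646 rows, and 28 of them had enough counts to be tested, among 19877 tested genes in all.

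The samples were MDA-MB-231 cells, an established line from a human triple-negative breast cancer, in a wild-type group of 4 and a knockout group of 4 that the labels write DOT1L/+ KO. DOT1L encodes the methyltransferase of H3K79, and the knockout cells were made with a guide RNA to its opening exon. Both groups were kept in DMEM with 5% FBS, seeded at a confluency near 50% and harvested on the following day, and the labels name no further treatment of either. The labels do not say which alleles were edited, whether the knockout cells are 1 clone, or whether replicates 1, 2, 3 and 5 of a group were separate cultures, so the p-values reflect variation among the deposited samples, which could be technical in origin. Totals ran from 40103408 to 50031412 counts per sample. DOT1L itself stood at 109 ± 8.52 CPM (counts scaled to library size with trimmed-mean factors) in wild-type and 84.7 ± 5.91 CPM in knockout samples (SD, n = 4 each), lower in 4 of 4 (log2 change -0.37, adjusted p = 2.83e-05), and a gene count cannot tell edited from intact transcript. Of the markers of this mesenchymal-like line, VIM, CD44, AXL and MSN were high in every sample and CDH2 lay below 1 CPM. ESR1, PGR and CDH1 lay below 1 CPM in every sample, as did 6 of 6 leukocyte, 4 of 5 endothelial and 3 of 6 fibroblast markers. Summed over each marker list, luminal epithelial genes ran from 639 to 723 CPM in wild-type and from 843 to 1030 CPM in knockout samples, with means of 310 and 540 CPM for KRT8, 79.4 and 50.3 CPM for KRT19 and 6.62 and 6.74 CPM for EPCAM. Of the 6 tested genes of that list, 4 were higher and 1 lower. The sums for fibroblast genes were 10.9 to 19.8 and 26.9 to 31.7 CPM, for endothelial genes 7.08 to 9.74 and 2.07 to 2.71 CPM, and for leukocyte genes 0.0634 to 0.472 and 0.543 to 1.01 CPM. Among the endothelial genes KDR went from 7.12 to 0.143 CPM on average, VWF from 0.182 to 0.718 CPM and TEK from 0.0531 to 0.236 CPM, with PECAM1 at 0.563 and 0.592 CPM. Of the defining markers, CD3E, MS4A1 and COL1A2 had 0 counts in wild-type, and DCN and LUM had 0 counts in knockout samples. The part of these shifts in the changes below was not tested.

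An integrin is a pair of an alpha and a beta subunit, and the pair sets the ligand. A laminin is a trimer of an alpha, a beta and a gamma chain. Laminins assemble into a sheet on the cell surface, which nidogens (NID1, NID2) and the heparan sulfate proteoglycans perlecan (HSPG2) and agrin (AGRN) tie to a network of type IV collagen. ITGA3, ITGA6 and ITGA7 pair with ITGB1 to bind laminins, and ITGA6 with ITGB4 forms the receptor of hemidesmosomes, where keratin filaments are anchored. LAMA3 and LAMB3 are chains of the laminin of hemidesmosomes. CD151 associates with the laminin-binding integrins, and dystroglycan binds laminin, agrin and perlecan through sugar chains and joins them to the dystrophin complex inside the cell.

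Promoter sequences of 5 members are shown because these genes moved in opposite directions, with LAMB3 and LAMA2 higher and LAMC1, ITGB5 and HSPG2 lower in knockout cells. They were picked after the values were seen. Each run holds the bases before the RefSeq start site that lie outside the annotated gene, 5′ to 3′ on the gene's strand, from RefSeq (GRCh38.p14), and capitals mark GGGCGG, the GC box bound by SP factors, on either strand.
LAMB3, chr1:209652467-209652675, minus strand: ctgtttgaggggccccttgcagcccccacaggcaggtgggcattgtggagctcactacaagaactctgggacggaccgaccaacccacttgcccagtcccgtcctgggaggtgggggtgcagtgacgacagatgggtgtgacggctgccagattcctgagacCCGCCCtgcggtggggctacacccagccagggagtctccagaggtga
LAMA2, chr6:128882888-128883137, plus strand: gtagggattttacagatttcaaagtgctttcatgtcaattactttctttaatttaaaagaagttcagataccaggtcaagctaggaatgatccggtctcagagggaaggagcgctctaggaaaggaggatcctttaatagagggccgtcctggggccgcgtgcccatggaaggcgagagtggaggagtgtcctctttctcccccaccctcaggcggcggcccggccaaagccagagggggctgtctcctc
LAMC1, chr1:183023170-183023419, plus strand: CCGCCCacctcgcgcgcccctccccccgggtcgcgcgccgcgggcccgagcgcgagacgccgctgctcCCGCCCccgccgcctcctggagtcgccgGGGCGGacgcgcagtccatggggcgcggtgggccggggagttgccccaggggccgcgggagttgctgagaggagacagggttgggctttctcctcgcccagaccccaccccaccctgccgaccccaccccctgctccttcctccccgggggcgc
ITGB5, chr3:124901419-124901668, minus strand: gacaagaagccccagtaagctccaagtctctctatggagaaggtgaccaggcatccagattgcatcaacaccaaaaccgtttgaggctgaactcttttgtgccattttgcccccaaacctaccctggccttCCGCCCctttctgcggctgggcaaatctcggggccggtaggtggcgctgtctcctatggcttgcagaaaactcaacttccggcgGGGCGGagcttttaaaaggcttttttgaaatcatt
HSPG2, chr1:21937311-21937560, minus strand: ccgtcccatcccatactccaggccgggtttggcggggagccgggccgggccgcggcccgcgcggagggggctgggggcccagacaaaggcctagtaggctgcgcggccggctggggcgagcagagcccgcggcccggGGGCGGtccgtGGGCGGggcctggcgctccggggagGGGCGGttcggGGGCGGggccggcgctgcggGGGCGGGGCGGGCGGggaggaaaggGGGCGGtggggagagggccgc
In these runs the GC box occurred 1 time in LAMB3, 0 times in LAMA2, 3 times in LAMC1, 2 times in ITGB5 and 8 times in HSPG2. Over whole windows of 250 bases before and 50 after a start site, RefSeq held 35 windows for 27 of the 36 members. GGGCGG was found in 23 of the 35 (65.7%), against 45.0% of 35116 windows of all genes. By gene, it was found in 8 of 9 members that fell, 2 of 3 that rose, 4 of 8 that did not pass and 3 of 7 that were not tested, and the share over all genes was counted by window and not by gene. The other motifs searched on both strands were the E box CACGTG (1 window, ITGA6, against 7.26% of all windows), the AP-1 motif TGANTCA (3 windows, ITGA5, LAMA3 and LAMB3, against 7.71%) and TATAAA (2 windows, ITGA6 and ITGB1, against 11.5%). None of these motifs contains another, and a match is a description of the sequence and not of a bound factor.

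Among the 28 tested members, 12 were lower and 6 were higher in the knockout cells. The genes that fell included the abundant laminin receptor subunits ITGA3 and ITGB1, dystroglycan, the laminin chains LAMB2 and LAMC1, agrin and perlecan. Those that rose were LAMB3, LAMA1, LAMA2, ITGA7, ITGB4 and ITGB8. The share lower was 42.9% of the tested members and the share higher 21.4%, beside 23.6% and 23.9% of all 19877 tested genes (edgeR's quasi-likelihood test, Benjamini-Hochberg adjusted p below 0.05). For each of these 18 genes all 4 knockout values lay on 1 side of all 4 wild-type values, while over all genes 22.1% were apart with knockout lower and 21.3% with knockout higher. Either way, 64.3% of the tested members and 47.6% of all tested genes were called, and 43.4% of all genes had groups apart. Genes with more counts are called more often, and 27 members were among the 13212 genes whose mean log2 CPM reached 1. Tested among those genes, 44.4% of the 27 were lower and 18.5% higher. The shares over all 13212 were 28% lower, 27.9% higher and 55.9% called. At a change of at least 2-fold, 2 members (ITGA7 and ITGB8) were higher and 0 lower, beside 6.72% and 2.64% of all genes. The median log2 change (knockout over wild-type, here and throughout) was -0.13 over the tested members and 0.00 over all genes tested. In RNA from whole cultures, fewer cells of a type and less RNA per cell cannot be told apart.

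Around some members most genes of a chromosomal stretch were lower, so each member was also measured relative to the median of up to 25 tested genes on each side, members left out. That median was taken as fixed, so a p-value on this scale does not measure its error or the spread among the neighbours. On that scale 8 members rose, 13 fell and 7 did not pass, beside 22.1% of 19604 genes higher and 22.3% lower. The 6 members that rose among all genes also rose on that scale, by 0.44 to 2.04. Among those that fell, DAG1, LAMB2, CD151 and ITGA2 were the ones whose value this scale altered by more than 1.5 times, and they are described with it below.

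**Figure D1:**
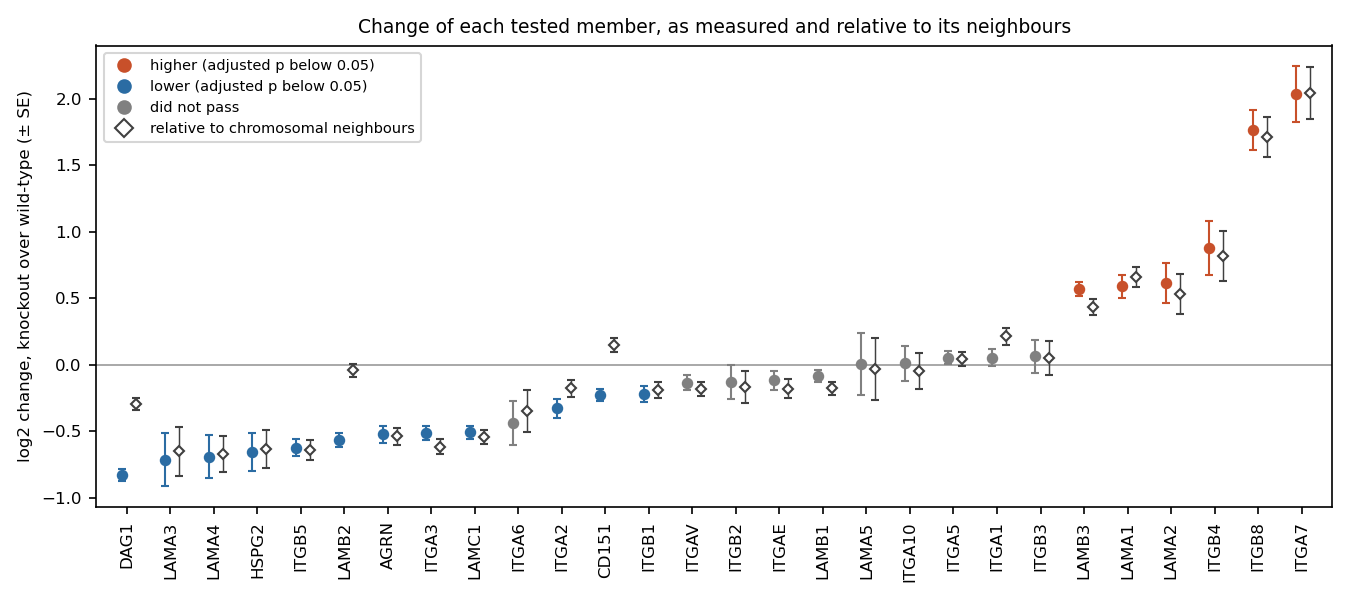
Log2 change of each of the 28 tested members, knockout over wild-type, with its SE, ordered by size (filled circles, red for higher, blue for lower, grey for not passed) and the same relative to chromosomal neighbours (open diamonds). The points run from -0.83 for DAG1 to 2.04 for ITGA7, and the diamonds of DAG1, LAMB2 and CD151 stand well above their circles.

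The laminin chains changed in opposite directions. All 9 were tested, of which LAMB3, LAMA1 and LAMA2 rose, LAMA3, LAMA4, LAMB2 and LAMC1 fell, and LAMA5 and LAMB1 did not pass. In the lists of values that follow, samples are in the order of replicates 1, 2, 3 and 5 of each group, values with ± are means and SD over 4 samples, and coordinates are those of GENCODE 29 on GRCh38.

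LAMB3 (ENSG00000196878, chromosome 1, 209614870 to 209652466, minus strand), the beta chain of the hemidesmosomal laminin, stood at 459.8, 453, 503 and 437 CPM in the wild-type samples and at 682, 662, 674 and 728 CPM in the knockout samples. The lowest knockout value was far above the highest wild-type value. Its mean rose from 463 ± 28 to 687 ± 28.9 CPM (SD, n = 4 each; log2 change 0.57, SE 0.05, adjusted p = 1.01e-08), or 1.48-fold. Its usual partner LAMA3 (ENSG00000053747, chromosome 18, 23689443 to 23956222, plus strand) went the other way, from 33.3, 31.8, 26.2 and 46.6 CPM in wild-type to 20.5, 18.6, 19.6 and 25.5 CPM in knockout samples. Wild-type replicate 5 was the highest of its group, and the groups did not overlap, although wild-type replicate 3 and knockout replicate 5 lay close together. The mean fell from 34.5 ± 8.67 to 21.0 ± 3.06 CPM (log2 change -0.71, SE 0.20, adjusted p = 0.0228). That call was lost without knockout replicate 1 (adjusted p = 0.0607), 2 (0.0583) or 3 (0.0613). It was kept in the other 14 of 17 alternatives, among them the replicate number as a block (log2 change -0.70, adjusted p = 1.88e-09).

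Per unit of length, LAMB3 was already in excess over LAMA3. The ratio of their RPKM (CPM per kilobase of exon) was 43.2, 44.7, 60.1 and 29.4 in the wild-type samples and 104, 112, 107 and 89.5 in the knockout samples. Every knockout ratio exceeded every wild-type ratio, with means of 44.4 ± 12.6 and 103 ± 9.63. No test was run on ratios, which are given as descriptions.

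LAMC1 (ENSG00000135862, chromosome 1, 183023460 to 183145592, plus strand) is the gamma chain shared by most laminins. It had 236, 221, 247 and 246 CPM in wild-type and 169.5, 163, 171 and 164 CPM in knockout samples. The values within each group were close and the groups far apart. The fall was from 237 ± 12.1 to 167 ± 4.01 CPM (log2 change -0.51, SE 0.05, adjusted p = 1.17e-08).

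LAMB2 (ENSG00000172037, chromosome 3, 49121114 to 49133118, minus strand) and LAMB1 are alternative beta chains that join LAMC1. Values of LAMB2 were 269, 268, 268 and 299.7 CPM in wild-type and 203, 181, 175 and 187 CPM in knockout samples, where wild-type replicate 5 stood above the rest of its group. The mean fell from 276 ± 15.7 to 187 ± 12.1 CPM (log2 change -0.57, SE 0.05, adjusted p = 1.51e-08). Its chromosomal neighbours had a median change of -0.53, and relative to them LAMB2 changed by -0.04 (adjusted p = 0.548), so the call was lost on that scale. LAMB1 measured 98.3 ± 5.87 CPM in wild-type and 92.9 ± 0.883 CPM in knockout samples (log2 change -0.08, SE 0.05, adjusted p = 0.163) and did not pass, but relative to its neighbours it fell by 0.17 (adjusted p = 0.00719). The RPKM ratio of LAMB2 to LAMB1 was 3.34 ± 0.328 in wild-type and 2.38 ± 0.155 in knockout samples, without overlap.

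Among the alpha chains, LAMA1 (ENSG00000101680, chromosome 18, 6941744 to 7117814, minus strand), the chain of early embryonic basement membranes, went from 22.2, 21.8, 27.5 and 27.2 CPM to 36.4, 33.1, 37.5 and 41.7 CPM. All knockout samples were above all wild-type samples, with means of 24.7 ± 3.09 CPM in wild-type and 37.2 ± 3.53 CPM in knockout samples (log2 change 0.59, SE 0.09, adjusted p = 3.60e-05). LAMA2 (ENSG00000196569, chromosome 6, 128883141 to 129516569, plus strand), the chain of the muscle basement membrane, was low in every sample, at 1.58, 1.70, 1.16 and 1.44 CPM in wild-type and 2.47, 2.27, 2.17 and 2.06 CPM in knockout samples. It too rose (log2 change 0.61, SE 0.15, adjusted p = 0.00207) and the groups did not overlap. LAMA4 (ENSG00000112769, chromosome 6, 112108760 to 112254939, minus strand), known from blood vessel walls, had 11.5, 15.1, 15.2 and 21.2 CPM in wild-type samples and 8.96, 9.90, 9.55 and 10.7 CPM in knockout samples. The wild-type values were widely spread, yet the lowest of them exceeded the highest knockout value. Its mean fell from 15.8 ± 4.0 to 9.77 ± 0.713 CPM (log2 change -0.69, SE 0.16, adjusted p = 0.00550).

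LAMA5 (ENSG00000130702, chromosome 20, 62307955 to 62367312, minus strand), the most abundant alpha chain per length, did not pass. Its wild-type values were 382, 408, 229.98 and 496 CPM and its knockout values 386, 355, 354 and 427 CPM. Wild-type replicate 3 was far below the other wild-type samples, which spread the group mean to 379 ± 111 CPM, beside 380.4 ± 34.2 CPM in knockout samples. With that replicate the log2 change came to 0.01 (SE 0.23, adjusted p = 0.987), and leaving it out gave -0.17 (SE 0.11, adjusted p = 0.262). The RPKM ratio of LAMA5 to LAMA3 was 11.2 ± 1.75 in wild-type and 18.7 ± 1.10 in knockout samples, without overlap.

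As a share of all RPKM of the 9 chains, LAMB3 held 46.8 ± 3.51% in wild-type and 62.0 ± 0.637% in knockout samples. The share of LAMB2 was 19.0 ± 0.591% and 11.5 ± 0.678%, and that of LAMC1 13.4 ± 0.541% and 8.41 ± 0.409%. A share of a fixed total must fall for some chains when it rises for another.

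**Figure D2:**
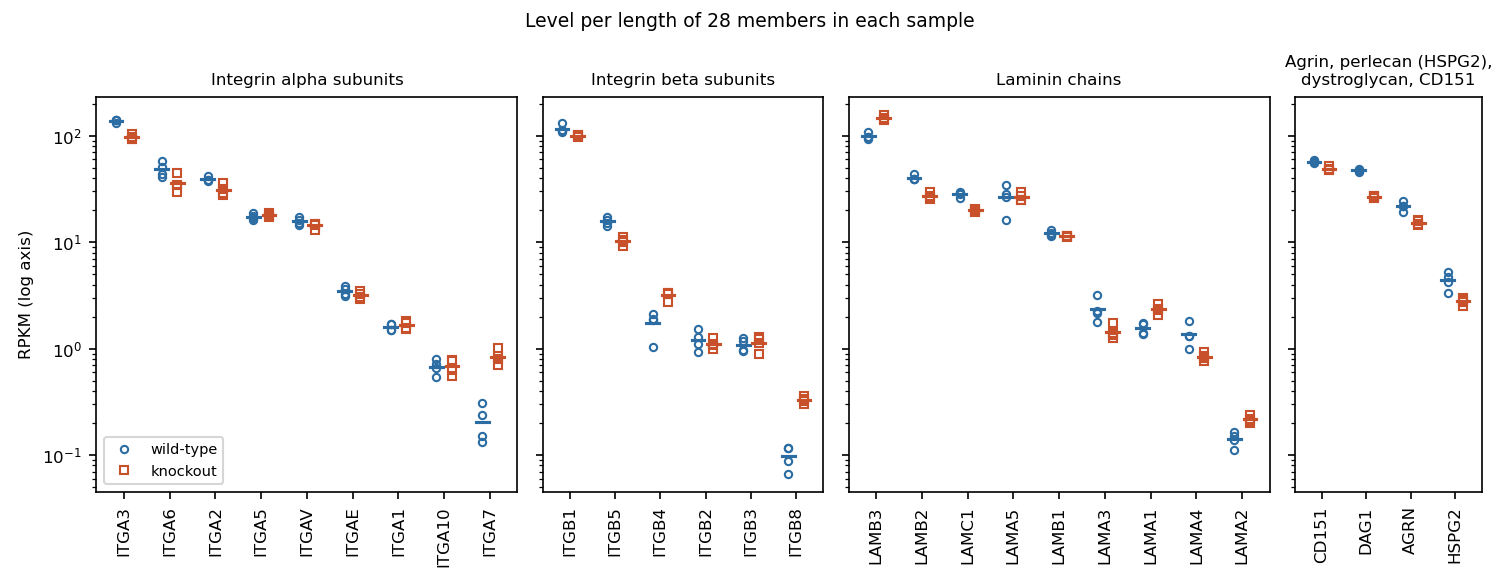
RPKM (log axis) of the 28 tested members in each of the 8 samples, wild-type as blue circles and knockout as red squares, with a bar at each group mean, sorted within each role by the wild-type level. LAMB3, ITGA3 and ITGB1 lie near the top in both groups, and ITGA7, ITGB8 and LAMA2 at the bottom.

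Both tested proteoglycans fell. AGRN (ENSG00000188157, chromosome 1, 1020123 to 1056118, plus strand), agrin, had 238, 234, 205 and 265 CPM in wild-type and 169, 156, 158 and 172 CPM in knockout samples, with all knockout values below all wild-type values. The mean went from 235 ± 24.4 to 164 ± 7.99 CPM (log2 change -0.52, SE 0.06, adjusted p = 1.60e-06). HSPG2 (ENSG00000142798, chromosome 1, 21822245 to 21937297, minus strand), perlecan, had 75.8, 85.9, 59.9 and 95.9 CPM in wild-type and 53.8, 50.2, 51.9 and 45.4 CPM in knockout samples. Wild-type replicate 3 was the lowest of its group and still lay above every knockout sample. The fall from 79.4 ± 15.4 to 50.3 ± 3.61 CPM (log2 change -0.66, SE 0.14, adjusted p = 0.00717) was not called with the replicate number as a block (log2 change -0.64, adjusted p = 0.0552).

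The nidogens were at the edge of detection. NID1 had 1 count over the 4 wild-type samples and 0 counts over the 4 knockout samples, where a count of 0 allows up to 3 counts per library, or 0.0595 to 0.0751 CPM. NID2 had 3 counts over the wild-type and 46 over the knockout samples. Scaled to library size with trimmed-mean factors, the ratio was 13.8 (95% counting interval 4.44 to 69.4). NID2 was not tested in edgeR's main comparison, and DESeq2 called it higher (log2 change 3.79, adjusted p = 0.000812). Such intervals cover counting error alone. The gene overlaps the far more abundant RTRAF on the opposite strand, and the strand setting of the counting is not given in the sources used here.

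Of the 8 integrin beta subunits 6 were tested, and ITGB4 and ITGB8 rose, ITGB1 and ITGB5 fell, and ITGB2 and ITGB3 did not pass. ITGB1 (ENSG00000150093, chromosome 10, 32900319 to 33005792, minus strand), the shared partner of most alpha subunits, stood at 661, 651, 799.6 and 673 CPM in wild-type and 579, 607, 599 and 606 CPM in knockout samples. Wild-type replicate 3 was high and the other wild-type values lay closer to the knockout values, without overlap. The mean went from 696 ± 69.6 to 598 ± 12.9 CPM (log2 change -0.22, SE 0.06, adjusted p = 0.00380), and without wild-type replicate 3 the log2 change was -0.14 (adjusted p = 0.00294).

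ITGB5 (ENSG00000082781, chromosome 3, 124761948 to 124901418, minus strand), a partner of ITGAV that binds vitronectin, measured 112, 104, 97.8 and 91.5 CPM in wild-type and 72.0, 67.4, 64.9 and 58.8 CPM in knockout samples. Within each group the values were spread by a similar amount and the groups were apart. The fall was from 101 ± 8.68 to 65.8 ± 5.49 CPM (log2 change -0.62, SE 0.07, adjusted p = 4.41e-07). ITGB8 (ENSG00000105855, chromosome 7, 20330702 to 20415754, plus strand), another partner of ITGAV, which activates latent TGF-beta, went in the opposite direction. It had 1.34, 1.75, 1.01 and 1.79 CPM in wild-type and 4.86, 5.16, 4.56 and 5.43 CPM in knockout samples, so every knockout value was more than 2-fold above every wild-type value. The rise was from 1.47 ± 0.367 to 5.00 ± 0.379 CPM (log2 change 1.77, SE 0.15, adjusted p = 3.52e-09), or 3.4-fold. On the variance-stabilized values of the authors, which compress low counts, limma gave a log2 change of 1.11 for ITGB8. ITGB8 stayed far below ITGB5 per length, with an RPKM ratio of 0.00626 ± 0.00181 in wild-type and 0.0326 ± 0.00474 in knockout samples.

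ITGB4 (ENSG00000132470, chromosome 17, 75721328 to 75757818, plus strand), the hemidesmosomal beta subunit, had 12.5, 14.3, 7.08 and 12.8 CPM in wild-type samples and 22.8, 22.4, 22.0 and 18.5 CPM in knockout samples. Replicate 3 was the lowest wild-type sample and replicate 5 the lowest knockout sample, and the groups did not overlap. Its mean rose from 11.7 ± 3.15 to 21.4 ± 1.96 CPM (log2 change 0.88, SE 0.20, adjusted p = 0.00912). GALK1, which overlaps ITGB4 on the opposite strand with 152% as many counts, changed by 0.28. In the same samples ITGA6, the partner of ITGB4, did not pass. The RPKM ratio of ITGB4 to ITGA6 was 0.0372 ± 0.0137 in wild-type and 0.0917 ± 0.0223 in knockout samples, without overlap, and ITGB4 remained the scarcer partner in all 8 samples.

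The leukocyte subunit ITGB2 measured 8.26 ± 1.78 CPM in wild-type and 7.55 ± 0.722 CPM in knockout samples (log2 change -0.13, SE 0.13, adjusted p = 0.445), and ITGB3, which pairs with ITGAV to bind vitronectin and fibronectin, 4.79 ± 0.670 CPM in wild-type and 5.02 ± 0.775 CPM in knockout samples (log2 change 0.06, SE 0.12, adjusted p = 0.705). ITGB2-AS1, on the opposite strand of ITGB2 with 38.1% as many counts, rose (log2 change 0.75). The untested ITGB6 had 14 counts over the wild-type and 22 over the knockout samples (ratio 1.42, 95% counting interval 0.693 to 2.99), and ITGB7 had 10 and 20 (ratio 1.80, interval 0.805 to 4.31).

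**Figure D3:**
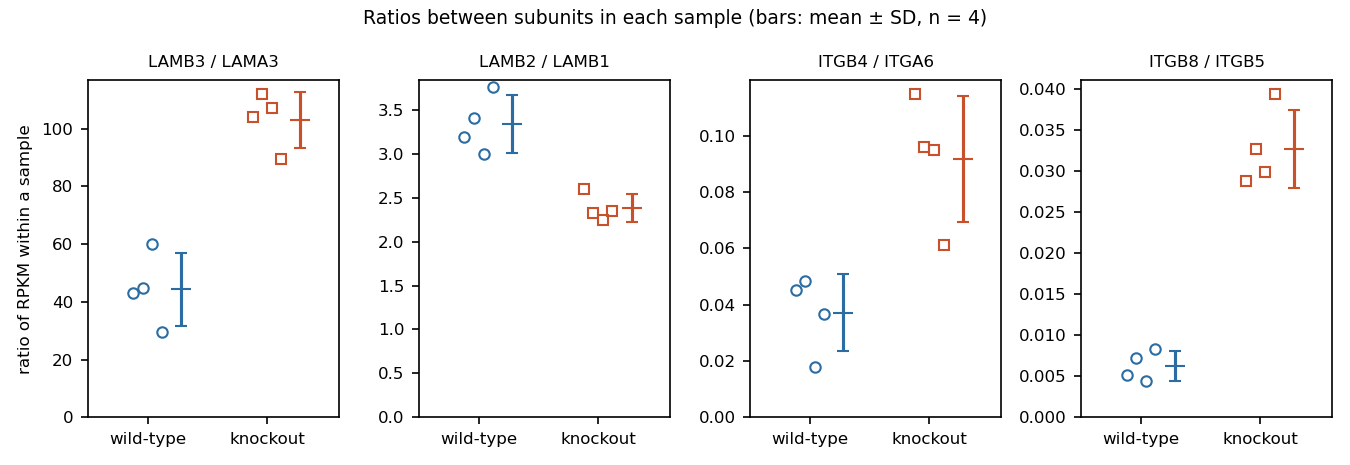
Ratio of RPKM between pairs of subunits within each sample (linear axis from 0), for LAMB3 over LAMA3, LAMB2 over LAMB1, ITGB4 over ITGA6 and ITGB8 over ITGB5, with blue circles for wild-type and red squares for knockout samples and the mean ± SD beside them. In each panel the 4 knockout values lie apart from the 4 wild-type values, lower for LAMB2 over LAMB1 and higher for the others.

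Of the 13 alpha subunits 9 were tested, and ITGA7 rose, ITGA2 and ITGA3 fell, and 6 did not pass. ITGA3 (ENSG00000005884, chromosome 17, 50055968 to 50090481, plus strand), the laminin-binding partner of ITGB1 and CD151, was the most abundant integrin transcript of wild-type cells per length. Its values were 1385, 1295, 1376 and 1381 CPM in wild-type and 1017, 921, 962 and 909.8 CPM in knockout samples. Wild-type replicate 2 was the lowest of its group and still well above the knockout samples. The mean fell from 1359 ± 43.3 to 952 ± 48.8 CPM (log2 change -0.51, SE 0.05, adjusted p = 3.38e-08), and relative to its neighbours by 0.61. The RPKM ratio of ITGB1 to ITGA3 was 0.835 ± 0.0769 in wild-type and 1.03 ± 0.0724 in knockout samples, and these groups overlapped.

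ITGA2 (ENSG00000164171, chromosome 5, 52989326 to 53094779, plus strand), a collagen receptor subunit, had 304, 333, 297 and 304 CPM in wild-type and 221, 252, 228 and 286 CPM in knockout samples. Knockout replicate 5 was the highest of its group and came close to the wild-type range. The fall from 309.5 ± 15.9 to 247 ± 29.1 CPM (log2 change -0.33, SE 0.07, adjusted p = 9.14e-04) was -0.18 relative to neighbours (adjusted p = 0.0288). ITGA1, the adjoining collagen receptor gene 30.1 kb away, did not pass (29.7 ± 2.31 CPM in wild-type and 30.9 ± 2.45 CPM in knockout samples, log2 change 0.06, SE 0.07, adjusted p = 0.518) but rose relative to the same neighbourhood (log2 change 0.22, adjusted p = 0.00888). PELO lies within ITGA1 on the same strand with 205% as many counts, so reads of this pair could have been shared.

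ITGA6 (ENSG00000091409, chromosome 2, 172427354 to 172506282, plus strand), the laminin receptor subunit that pairs with ITGB1 or ITGB4, did not pass. It had 266, 284, 379.8 and 334 CPM in wild-type and 192, 225, 224 and 292 CPM in knockout samples, and knockout replicate 5 lay within the wild-type range. In both groups replicate 1 was the lowest sample. The means were 316 ± 51.2 CPM in wild-type and 233 ± 42.2 CPM in knockout samples (log2 change -0.44, SE 0.17, adjusted p = 0.0681). With the replicate number as a block ITGA6 was called lower (adjusted p = 0.00400), as it was by DESeq2 (0.0353), without wild-type replicate 1 (0.0465) and without knockout replicate 5 (0.0119).

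ITGAV, the alpha subunit of the vitronectin and latent TGF-beta receptors, measured 129 ± 10.2 CPM in wild-type and 118 ± 7.46 CPM in knockout samples (log2 change -0.13, SE 0.06, adjusted p = 0.0633) and also did not pass. It was called lower with the replicate block (adjusted p = 0.00773), relative to neighbours (log2 change -0.18, adjusted p = 0.00855), under a lenient count filter (0.0169), and on leaving out wild-type replicate 1 (0.0251) or 2 (0.0469). ITGB5 fell while ITGAV was not called, and the RPKM ratio of ITGB5 to ITGAV was 1.01 ± 0.155 in wild-type and 0.715 ± 0.102 in knockout samples, without overlap.

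ITGA7 (ENSG00000135424, chromosome 12, 55684568 to 55716043, minus strand), a laminin receptor subunit best known from muscle, was scarce and had the largest rise of the tested members. It measured 1.51, 1.95, 0.845 and 0.959 CPM in wild-type and 6.43, 5.41, 4.43 and 5.08 CPM in knockout samples. The lowest knockout value was more than 2-fold above the highest wild-type value. Its mean went from 1.32 ± 0.514 to 5.34 ± 0.834 CPM (log2 change 2.04, SE 0.21, adjusted p = 1.16e-06), or 4.1-fold, and limma on the variance-stabilized values of the authors gave a log2 change of 1.27. METTL7B, which overlaps its 3′ end on the opposite strand, had 68.8% as many counts and also rose (log2 change 1.63, adjusted p = 4.05e-09), and how much the pair shared reads was not tested.

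Of the remaining alpha subunits, ITGA5, the fibronectin receptor subunit, measured 131 ± 8.57 CPM in wild-type and 136 ± 4.48 CPM in knockout samples (log2 change 0.05, SE 0.05, adjusted p = 0.389). It was called higher with library totals (log2 change 0.12, adjusted p = 0.0331) and upper-quartile scaling (0.12, adjusted p = 0.0393). ITGAE, which binds E-cadherin as a pair with ITGB7, measured 23.1 ± 2.21 CPM in wild-type and 21.3 ± 1.63 CPM in knockout samples (log2 change -0.12, SE 0.07, adjusted p = 0.198) and was called lower relative to its neighbours (-0.18, adjusted p = 0.0441). ITGA10, a collagen receptor subunit of cartilage, measured 4.29 ± 0.700 CPM in wild-type and 4.31 ± 0.665 CPM in knockout samples (log2 change 0.01, SE 0.13, adjusted p = 0.954).

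The 4 untested alpha subunits had few counts. ITGA9, a tenascin receptor subunit, had 11 counts over the wild-type and 76 over the knockout samples, a ratio of 6.22 (95% counting interval 3.29 to 13.0), and DESeq2 called it higher (log2 change 2.62, adjusted p = 0.000133). ITGA9-AS1, on its opposite strand, had 641% as many counts. ITGA11 had 6 and 27 counts (ratio 4.05, interval 1.64 to 12; DESeq2 adjusted p = 0.1). ITGA4 had 0 counts over the wild-type and 9 over the knockout samples, at most 5 in a sample, and ITGA8 had 0 and 2. Over a group both stay under the floor of 3 counts per library, so no fold is given.

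Dystroglycan had the largest fall of the tested members. DAG1 (ENSG00000173402, chromosome 3, 49468703 to 49535618, plus strand) measured 334, 325, 319 and 332 CPM in wild-type and 189.98, 184, 186 and 179 CPM in knockout samples. The values of each group were tight and the groups far apart. The mean fell from 327 ± 6.81 to 185 ± 4.72 CPM (log2 change -0.83, SE 0.04, adjusted p = 2.37e-12), so that wild-type was 1.77-fold above knockout. Much of the surrounding chromosome was lower as well. Of the 80 tested genes around DAG1, as many on each side in chromosomal order, 64 were lower and 4 higher. They ran from -1.17 to 2.07 Mb of its start, with a median log2 change of -0.53. Relative to its neighbours DAG1 fell by 0.29 (adjusted p = 2.12e-05). LAMB2 lies in the same stretch, 336 kb from DAG1, and relative to neighbours it changed by -0.04, as given above.

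CD151 (ENSG00000177697, chromosome 11, 832843 to 839831, plus strand) had 229.8, 221, 233 and 218 CPM in wild-type and 204, 191, 187 and 188 CPM in knockout samples. Every knockout value was lower than every wild-type value. The fall was from 225 ± 6.94 to 192 ± 8.06 CPM (log2 change -0.23, SE 0.05, adjusted p = 3.18e-04). Among the 80 tested genes around it, taken in the same way from -0.693 to 3.01 Mb, 49 were lower and 6 higher, with a median of -0.39. Relative to its neighbours CD151 therefore stood higher, by 0.15 (adjusted p = 0.0270), the reverse of its change among all genes. POLR2L, which overlaps CD151 on the opposite strand with 50.4% as many counts, changed by -0.24.

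**Figure D4:**
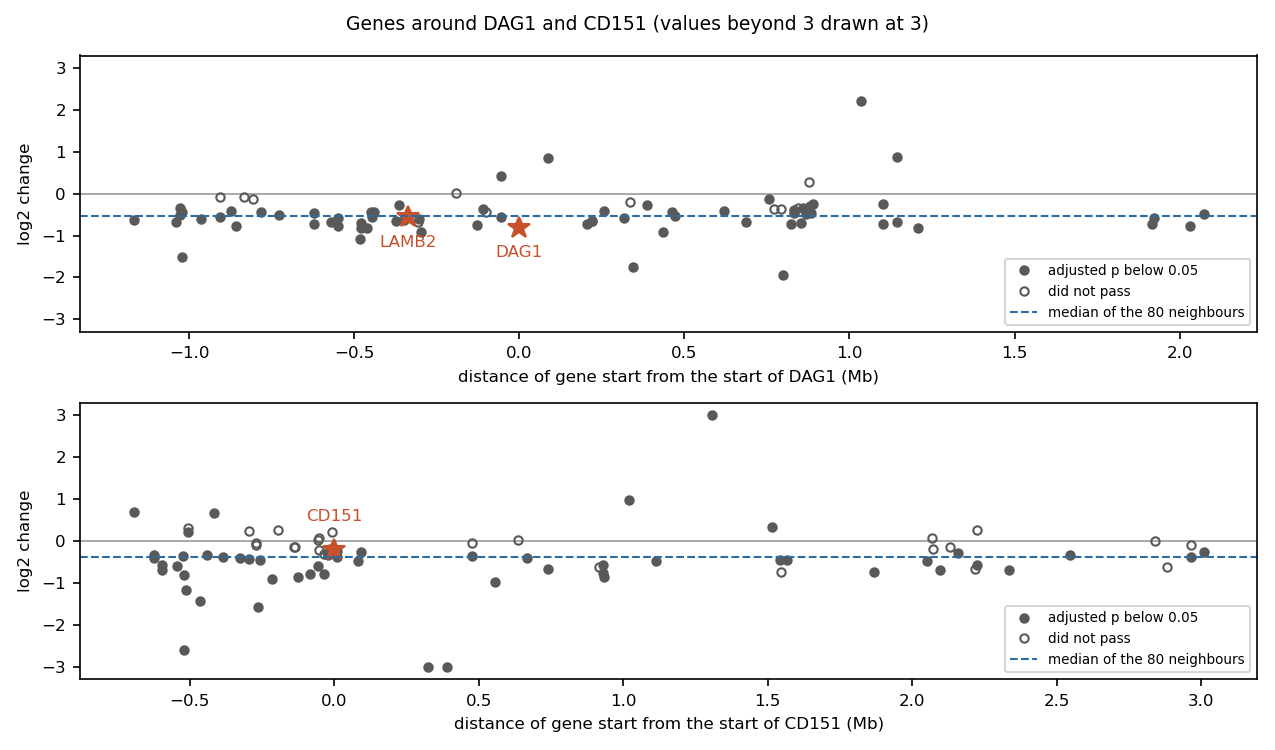
Log2 change, knockout over wild-type, of the 80 tested genes around DAG1 (top) and CD151 (bottom) against the distance between start sites in Mb. Filled points have an adjusted p below 0.05, stars mark the members and a dashed line marks the median of the neighbours. DAG1 lies below its line at -0.53, LAMB2 on it, and CD151 above its line at -0.39.

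Per unit of length the order of the members at the top changed. In wild-type samples ITGA3 led with 138.7 ± 4.41 RPKM, followed by ITGB1 with 115.8 ± 11.6 and LAMB3 with 98.8 ± 5.97 RPKM (SD, n = 4 each). In knockout samples LAMB3 led with 146.5 ± 6.18 RPKM, and ITGB1 (99.5 ± 2.15) and ITGA3 (97.2 ± 4.98) did not differ beyond their spread. CD151, ITGA6, ITGA2, DAG1 and LAMB2 came next in both groups, between 26.7 and 57.2 RPKM. At the lower end LAMA2, ITGA7, ITGA10 and ITGB8 had means under 1 RPKM in both groups. ITGB1 held 85.3 ± 2.01% of the RPKM of all beta subunits in wild-type and 86.1 ± 1.234% in knockout samples.

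Genes that work with these members were read from 8 further lists, of which 100 of 115 genes were tested. In all, 42 were higher, 33 lower and 25 did not pass, with a median log2 change of 0.07. The shares over all tested genes, to be read beside this and each list below, were 23.9% higher, 23.6% lower and 47.6% called. Relative to their neighbours 39 of the 100 were higher, 26 lower and 35 did not pass, beside 22.1% higher and 22.3% lower of all genes. Integrin and laminin genes outside the set had 3 of 4 tested members higher and 0 lower. LAMB4, a laminin beta chain, went from 0.871 ± 0.288 to 10.3 ± 0.920 CPM (log2 change 3.57, adjusted p = 1.09e-12), and the leukocyte subunit ITGAX, named after its value was seen, rose by 2.25. The collagens of basement membranes were all called, 4 higher and 4 lower of 8, or 5 higher and 3 lower relative to their neighbours. COL4A1, a chain of the main type IV collagen, fell from 116 ± 8.05 to 76.6 ± 3.58 CPM (log2 change -0.60) and COL18A1 by 0.50. COL17A1, the transmembrane collagen of hemidesmosomes, rose from 17.2 ± 1.79 to 42.1 ± 2.32 CPM (1.30), and COL4A4 rose by 1.42.

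Of 11 tested linkers and crosslinkers of the matrix, 5 rose, 3 fell and 3 did not pass. Hemicentin HMCN1 (1.30) and FREM2 (0.69) rose, and netrin NTN4 (-0.37) and the lysyl oxidase LOXL2 (-0.41) fell on the log2 scale. Ligands of integrins, in the matrix or on cells, had 7 of 13 higher, 4 lower and 2 not passed. The fibulin FBLN5 (1.14) and fibrillin FBN1 (0.44, or 0.28 relative to its neighbours) rose. EDIL3, a ligand of ITGAV integrins, fell from 265 ± 8.58 to 91.4 ± 11.3 CPM (-1.54), and ICAM1, a ligand of leukocyte integrins, fell by 0.82.

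Inside the cell, 30 adaptors and kinases of integrin adhesions were tested, and 14 rose, 10 fell and 6 did not pass. Relative to their neighbours 10 rose, 6 fell and 14 did not pass. The kindlin FERMT1, which activates integrins, rose from 40.4 ± 4.56 to 81.2 ± 4.99 CPM (1.01) and paxillin (PXN) by 0.49, while the parvin PARVA (-0.58, or -0.24 relative to its neighbours) and TGFB1I1 (-0.47) fell. Of 10 hemidesmosome partners and tetraspanins, 4 rose, 2 fell and 4 did not pass. COL17A1 (1.30) and CD82 (0.41) rose, and CD81 (-0.46) and TSPAN4 (-0.39) fell. TSPAN4, CD81 and CD82 stood at -0.03, -0.15 and 0.78 relative to their neighbours.

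The enzymes that build the laminin-binding sugar of dystroglycan had 8 of 15 lower, 1 higher and 6 not passed, with a median of -0.26, or -0.03 relative to neighbours. The glucuronyltransferase B4GAT1 (-0.83, or -0.32 relative to its neighbours) fell, and the mannosyltransferase POMT1 (0.25) rose. LARGE2, which extends that sugar and was named after its values were seen, had 124 counts over the wild-type and 2 over the knockout samples (ratio 68.8, 95% counting interval 18.7 to 575). Of the dystrophin complex, 5 of 10 tested genes rose, 2 fell and 3 did not pass. The dystrobrevins DTNA (0.35) and DTNB (0.30) rose, and the sarcoglycan SGCB fell by 0.15, with groups that overlapped and a change of 0.05 relative to its neighbours (adjusted p = 0.447). Dystrophin itself (DMD), named after its values were seen, had 451 counts over the wild-type and 2 over the knockout samples (ratio 250, 95% counting interval 68.9 to 2070).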

How the data were processed

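Whole-number counts per Ensembl gene were deposited by the authors for 8 RNA-seq samples, along with log2-scale values that the authors made by a variance-stabilizing transformation, per the file headers. Libraries were stranded and ribosomal RNA was removed, per the labels' protocols. The submitters' processing notes list hg38, DESeq2 1.23.10, featureCounts in Subread 1.6.2, STAR 2.6.0c and FastQC 0.11.7. How strand was set in counting and which annotation was used is not given in the sources used here.

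The groups were compared in R 4.3.3 with edgeR 4.0.16 (filterByExpr, trimmed-mean scaling, robust quasi-likelihood fit, group as the single term). P-values were adjusted over all tested genes, and this test gave each adjusted p unless another tool is named. SE is the log2 change over the root of F. CPM used the trimmed-mean scaling, and RPKM divided them by summed exon length in GENCODE 29. Of 60646 rows, 60333 had a symbol and 58459 matched that annotation. With 40103408 to 50031412 counts per sample, 1 count was 0.0198 to 0.0250 CPM. The code was tested on a single simulated set of 19001 genes, of which 67, 67 and 66 were changed by 1.5-, 2- and 4-fold. There 11.2% of 214 calls were false, more than the threshold of 0.05 implies. Far more genes were called in the real samples (9458), so their false share may differ. An adjusted p close to 0.05 is uncertain all the same.

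Alternatives were other scalings, filters and tools (DESeq2 1.42.0, limma 3.58.1), the replicate number as a block, the scale relative to neighbours, and each sample left out. Deviations of same-numbered samples correlated at 0.376, 0.154, 0.153 and 0.391, above the minimum of 0.1. Those of differently numbered samples correlated at -0.301 to 0.0596. The labels do not say that a number marks a shared batch. The main test therefore left the samples unpaired, and the pairing entered only in the alternative with the replicate number as a block. Replicate 1 of both groups stood apart in GC content (Spearman 0.415 and 0.551 between GC and deviation, -0.27 to -0.0424 in the others).

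Every tested member is named. Values by sample are given for called members whose mean log2 CPM reached 1, for the 3 most abundant of each role, and for LAMA2, which falls outside this rule and was added after its values were seen. From each further list, up to 2 genes per direction are named, those with the smallest adjusted p among genes whose mean log2 CPM reached 1. A few genes of these lists are not reported here by name. The members and lists were chosen with earlier results of these data known.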

Additional observations from a re-analysis of the deposited data

Results flagged for a closer look

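Among 56 groups of 4 values (28 members in 2 groups), 4 held a sample whose gap to its nearest neighbour was a larger part of the group's range than Dixon's 95% limit allows, where chance gives about 2.8 such groups. ITGB1 was high in wild-type replicate 3, at 799.6 CPM, and LAMB2 in wild-type replicate 5, at 299.7 CPM. ITGA3 was low in wild-type replicate 2, at 1294.6 CPM, and ITGAV in knockout replicate 1, at 106.75 CPM. ITGB1, LAMB2 and ITGA3 were called without the sample named.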

How the results depend on the processing

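The lenient filter (at least 1 count in 1 sample), which tested all 36 members, called 10 higher, adding ITGA4, ITGA9, ITGA11 and NID2. That was 27.8% of the members, beside 14.3% of 37527 genes. ITGA4 rested on 9 counts over the knockout samples, and DESeq2 called neither ITGA4 (adjusted p = 0.188) nor ITGA11 (0.1). With 1 sample left out, 6 to 8 members were higher and 11 to 14 lower. Of all genes, 20.9% to 24.4% were then higher and 21.1% to 22.9% lower. With the replicate number as a block 6 were higher and 13 lower, HSPG2 was lost and ITGA6 and ITGAV were gained, and 10472 genes of all were called, against 9458. Of the 18 called members 14 kept their call and direction in each of the 17 alternatives that tested them, the exceptions being LAMA3, LAMB2, HSPG2 and CD151. Relative to neighbours the log2 change of CD151 reversed, to 0.15. Changes near 0 in members that did not pass also changed sign. For LAMA5 they were -0.0064 with the lenient filter, -0.028 relative to neighbours, -0.0011 by DESeq2 and ranged from -0.17 to 0.16 without single samples. For ITGA10 they were -0.00039 with that filter, -0.048 relative to neighbours and -0.083 to 0.097 without single samples. Without single samples ITGB2 ranged from -0.24 to 0.0058 and ITGB3 from -0.0013 to 0.17. The cause was not tested. Library totals and upper-quartile scaling moved the split of all calls to 5905 higher and 3744 lower, and to 6021 and 3705, while members went from 6 to 7 higher and stayed at 12 lower. The 8 untested members had at most 28 counts in a sample.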
